A study of Mus musculus with 6 samples.

Results

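The AP-1 subunits *Jun*, *Junb*, *Jund*, *Fos*, *Fosl1* and *Fosl2*, the related factor *Atf3*, *Myc*, and the immediate early genes *Egr1* and *Ier2* were described in cultured squamous cell carcinoma cells (SCCc). These 10 genes were chosen by name. Each had a row of its own among the 23698 rows of the gene tables, and 10 of 10 passed the filters on low values, as did 9862 rows in all. SCCc are mouse keratinocytes from P0 back skin with the genotype HrasG12V; Tgfbr2 fl/fl KO, a previously made line kept in low-calcium medium and used at passages 10 to 15. The study asked how 5′UTR isoforms relate to translation in such cells. The files analysed here hold 1 ribosome profiling library, which counts the mRNA fragments protected by ribosomes (footprints), and 2 RNA-seq libraries, which measure mRNA abundance. Wild-type libraries and further squamous cell carcinoma ribosome profiling libraries of the study were not used here, so all values are levels within SCCc, and no condition was compared with another.

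AP-1 is a dimer of basic leucine zipper proteins, in which a Jun protein pairs with another Jun protein, a Fos protein or an ATF protein. Myc binds DNA together with Max. Many of these genes are immediate early genes, whose short-lived mRNAs appear within minutes of a growth signal such as Ras activation, and in the epidermis AP-1 takes part in keratinocyte proliferation and differentiation.

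The ribosome profiling library had 3549555 counts on exons, RNA-seq replicate 1 had 10707930 and replicate 2 had 14003713. Of these counts the 10 genes held 0.0688% of the footprints, 0.0635% of replicate 1 and 0.0755% of replicate 2. Levels are given as RPKM, the counts per kilobase of counted sequence, scaled to the library's sum of counts on exons. Over 9862 genes the chi-square between the RNA-seq replicates was 7.52 for each degree of freedom, which is more than sampling noise gives. Nothing says that they came from separate cultures, so their spread may be technical. No replicate of the ribosome profiling library was analysed here, and its values carry exact Poisson 95% intervals, which cover counting error only because PCR copies of a fragment are not independent molecules.

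The keratinocyte label held. All 16 keratinocyte markers were above 1 RPKM in both RNA-seq libraries, with sums of 18374 and 20891 RPKM, and *Krt5* was the most abundant at 7965 and 9483 RPKM. Of the suprabasal markers, 4 of 5 had a row, and they summed to 118 RPKM in replicate 1 and 120 RPKM in replicate 2, most of it from *Ivl* (104 RPKM in each). The 9 fibroblast or feeder cell markers summed to 11.9 RPKM in replicate 1 and 19.1 RPKM in replicate 2, led by *Col3a1* at 3.89 and 5.49 RPKM, and 7 of the 9 had 0 footprints on the CDS. The exceptions were *Vim* with 41.9 and *Pdgfra* with 10 footprints. The 5 immune markers summed to 4.57 and 14.2 RPKM, led by *Lyz2* at 2.71 and 8.56 RPKM. All 5 had 0 footprints on the CDS, and *Cd3e* was at 0 counts in every library. Melanocyte markers summed to 5.38 and 5.47 RPKM, led by *Pmel*, and endothelial markers to 0.505 and 0.591 RPKM, led by *Kdr*. RNA-seq replicate 2 thus held 3.11 times the immune and 1.60 times the fibroblast marker RNA of replicate 1. In bulk libraries, fewer cells of a type and less RNA per cell cannot be told apart. *Hras* had 1179 and 1619 RNA-seq counts and 128 footprints on the CDS, and *Tgfbr2* had 3150 and 3958 RNA-seq counts and 193 footprints. Counts per gene show neither a base change nor the loss of single exons.

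At the RNA level, *Myc* and *Junb* were the most abundant of the 10 genes and *Atf3* the least. Mean RNA-seq levels fell in the order *Myc* (69.8 RPKM), *Junb* (55.4), *Fosl2* (37.0), *Ier2* (33.6), *Jun* (20.6), *Jund* (14.4), *Fos* (10.5), *Fosl1* (7.02), *Egr1* (4.66) and *Atf3* (2.6 RPKM). The replicate ranges of *Fosl2* and *Ier2* overlapped, as did those of *Jun* and *Jund* and of *Jund* and *Fos*, and the other neighbours in the order were separate in both replicates. The all-gene median was 15.3 RPKM, and 5 of the 10 genes lay above it. Footprints on the CDS gave another order. *Fosl1* came first with 139 RPKM and *Junb* followed with 121 RPKM, then *Myc* (96.9), *Ier2* (92.0), *Fosl2* (43.4), *Jun* (41.6), *Jund* (24.1), *Atf3* (16.0), *Fos* (14.2) and *Egr1* (4.24 RPKM). The counting intervals overlapped between *Fosl1* and *Junb*, *Myc* and *Ier2*, *Fosl2* and *Jun*, *Jund* and *Atf3*, and *Atf3* and *Fos*. In the plot of levels, 7 of the 10 genes lie to the right of the all-gene median of 19.1 RPKM for footprints.

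**Figure D1:**
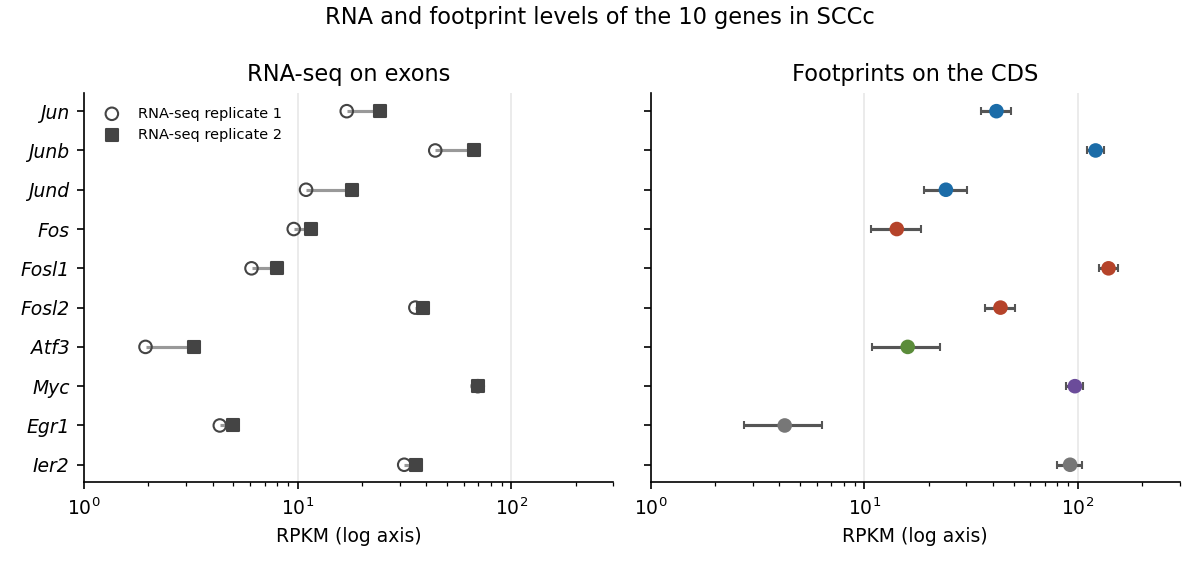
RNA-seq RPKM on exons in each replicate (left) and footprint RPKM on the CDS with exact Poisson 95% intervals (right) of the 10 genes, on log axes. Right-hand points are blue for Jun, red for Fos, green for *Atf3*, purple for *Myc* and grey for *Egr1* and *Ier2*, and *Fosl1* moves from 7.02 RPKM on the left to 139 RPKM on the right.

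Translational efficiency compares footprints with mRNA. It is the log2 of the CDS footprint RPKM divided by the exon RPKM averaged over the RNA-seq replicates, and it is given relative to the median of the 9862 genes, so that 0 is the typical gene. Its SD across genes was 1.45. *Fosl1*, *Atf3* and *Ier2* were above 1, which makes 3 of 10 genes against 20.7% of all genes. None of the 10 was below -1, against 21.1% of all genes. The median of the 10 genes was 0.53, and 8 of them were above 0. The share above 1 was close to that of all genes, and the spread among the 10, from -0.48 in *Egr1* to 3.97 in *Fosl1*, is described gene by gene.

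**Figure D2:**
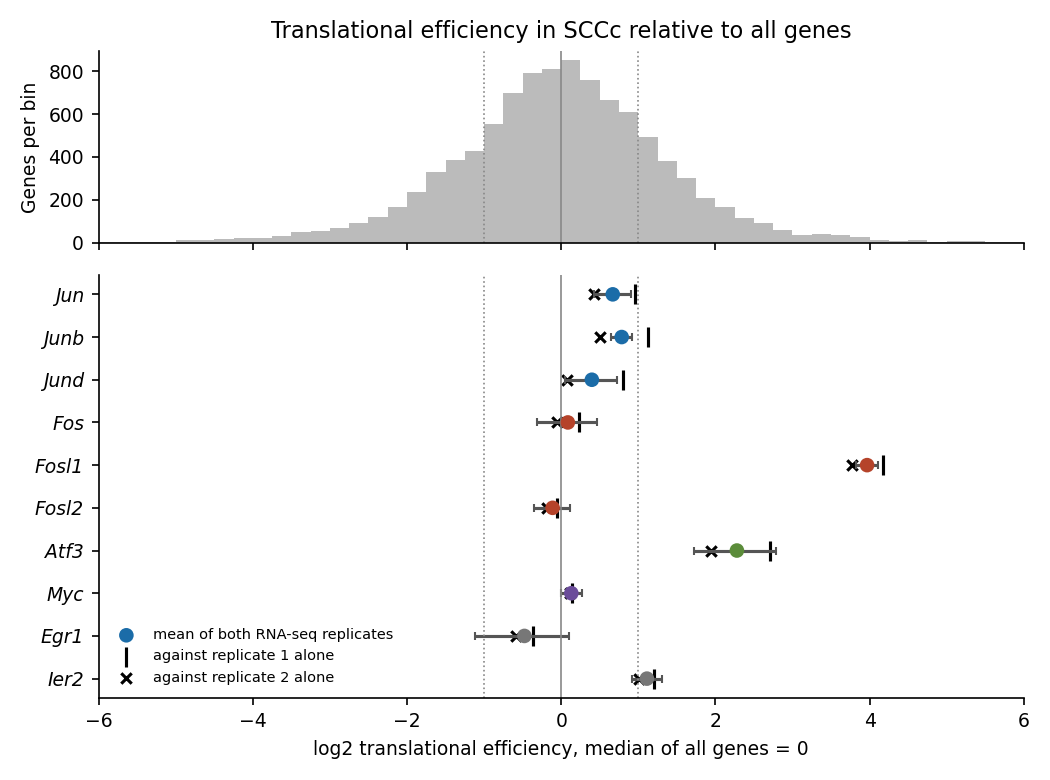
Log2 translational efficiency of all genes passing the filters (upper panel, genes per bin of 0.25) and of the 10 genes (lower panel), with 0 at the median of all genes and dotted lines at -1 and 1. Filled points use both RNA-seq replicates, bars show the counting error of the footprints, the other marks use 1 RNA-seq replicate, and *Fosl1* at 3.97 stands at percentile 99.1.

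The Jun proteins are the AP-1 subunits that can pair among themselves. *Junb* had the most RNA and the most footprints of the family. It was at 44.1 and 66.8 RPKM in RNA-seq replicates 1 and 2 (868 and 1722 counts), and its 444 footprints on the CDS (interval 403 to 487) gave 121 RPKM. *Jun*, which encodes c-Jun, was at 17.0 and 24.3 RPKM (579 and 1084 counts) and had 148 footprints (125 to 174), or 41.6 RPKM. *Jund*, often described as the family member of resting cells, was at 10.9 and 17.9 RPKM (320 and 685 counts) and had 75.2 footprints (59.2 to 94.3), or 24.1 RPKM. For all 3 genes RNA-seq replicate 2 was the higher. *Junb* made up 61.2% and 61.3% of the family's RNA-seq RPKM and 64.8% of its footprint RPKM, *Jun* 23.6%, 22.3% and 22.3%, and *Jund* 15.2%, 16.4% and 12.9%. With RNA-seq counted over the CDS, the share of *Jund* in the family's RNA was 23.8% and 24.2%, above its share of footprints.

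Translational efficiency of the Jun genes lay above the typical gene and below 1. It was 0.67 ± 0.38 for *Jun*, 0.78 ± 0.44 for *Junb* and 0.40 ± 0.52 for *Jund* (SD over the RNA-seq replicates, n = 2 for each). Against replicate 1 alone *Junb* reached 1.12, and against replicate 2 alone it was 0.50. Since all 3 genes moved together between the replicates, differences were also taken within each replicate. *Junb* exceeded *Jund* by 0.32 and 0.43, and *Jun* exceeded *Jund* by 0.15 and 0.35. *Jun* minus *Junb* was -0.17 and -0.08. Each difference kept its sign in both replicates, but these share the footprints and so leave their counting error out. The counting ranges from the footprints were 0.43 to 0.90 for *Jun*, 0.65 to 0.92 for *Junb* and 0.05 to 0.72 for *Jund*. These ranges overlapped, so the order of the Jun genes was not determined. *Jund* changed sides when RNA-seq was counted over the CDS, with -0.38 in place of 0.40, and when counts were not divided by length, with -0.22, where *Jun* was at 0.01. Its counted exons include 1319 nt of 5′UTR, on which the RNA-seq replicates had 3.50 and 12.2 counts, against 224 and 456 counts on 879 nt of CDS.

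The annotated transcripts used for the Jun genes have 1 exon each. In GENCODE M21 (GRCm38), *Jun* is at chr4:95049034-95052222 on the minus strand, *Junb* at chr8:84974484-84978718 on the minus strand and *Jund* at chr8:70698949-70700616 on the plus strand. The counted CDS of *Jund* covers 879 of the 1023 annotated nt, or 85.9%. The part left out lies between the annotated start codon and the ATG at codon 49, where the counted CDS begins, and has a GC content of 75.7%. Both starts are shown 5′ to 3′ with the start codon in capitals, since the count of each region depends on which is used. Their windows are chr8:70699046-70699075 and chr8:70699190-70699219.
Jund annotated start: gggaaggtggggATGgaaacgcccttctat
Jund start of the counted CDS: ccgacgagcagcATGctgaagaaagacgcg
Only the annotated start has a G directly after the ATG, and both have a purine 3 bases before it. An antisense gene, *Gm11175*, overlaps 877 nt of the *Jund* CDS, and *Junos* overlaps 232 nt of the *Jun* 5′UTR. Neither has a row in the tables, and whether RNA-seq reads were counted by strand is not given in the sources used here. A further 173 nt of annotated *Junb* exon, outside the CDS and UTRs of the transcript used, overlap *Prdx2* on the other strand.

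Among the Fos genes, *Fosl1* had the least RNA and the most footprints. Fos proteins need a Jun partner to bind DNA, and *Fosl1* and *Fosl2* encode Fra-1 and Fra-2. *Fosl2* had most of the family's RNA, with 35.6 and 38.5 RPKM in RNA-seq replicates 1 and 2 (2224 and 3145 counts). *Fosl1* was at 6.08 and 7.96 RPKM (111 and 190 counts), and *Fos* at 9.58 and 11.5 RPKM (214 and 336 counts). *Fosl2* RNA was thus 5.27 times that of *Fosl1*, and the replicate ranges were far apart. On the CDS *Fosl1* had 405 footprints (366 to 446), *Fosl2* 151 (128 to 177) and *Fos* 57.5 (43.6 to 74.4). Per length and depth this is 139 RPKM for *Fosl1*, 43.4 RPKM for *Fosl2* and 14.2 RPKM for *Fos*. *Fosl1* made up 11.9% and 13.7% of the family's RNA-seq RPKM and 70.7% of its footprint RPKM, whereas *Fosl2* went from 69.4% and 66.4% to 22.1% and *Fos* from 18.7% and 19.9% to 7.21%.

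*Fosl1* had the highest translational efficiency of the 10 genes, 3.97 ± 0.29 (SD, n = 2), which is 15.6 times the median gene and percentile 99.1 of all genes. With only replicate 1 as the RNA-seq value it was 4.18, and with only replicate 2 it was 3.78. *Fosl2* was at -0.11 ± 0.09 and *Fos* at 0.09 ± 0.20, both near the typical gene. For *Fosl2* this depended on the processing, with -1.68 when counts were not divided by length and -0.50 with at least 100 counts in every library. *Fosl1* exceeded *Fosl2* by 4.08, or 16.9-fold, and *Fos* by 3.88, or 14.7-fold, with 4.23 and 3.95 in the separate replicates for the first difference. *Fos* exceeded *Fosl2* by 0.20, with 0.28 and 0.13 in the separate replicates, which share the footprints. The counting ranges from the footprints, -0.31 to 0.46 for *Fos* and -0.35 to 0.12 for *Fosl2*, overlapped, so their order was not determined. Over the alternatives tried, *Fosl1* ranged from 3.58 to 4.18.

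The *Fosl1* value rests on few RNA-seq counts and on exons that another gene shares. *Fosl1* is at chr19:5447547-5455946 on the plus strand, and *Ccdc85b* on the other strand overlaps 522 nt of its CDS and 641 nt of its stop codon and 3′UTR. *Ccdc85b* had 39.2 footprints on the CDS, 0.429 on 3629 counted nt of 3′UTR and 64 on all exons. In RNA-seq its 3′UTR had 159 and 219 counts, and the RNA-seq counts of the genes cannot be separated from these values if strand was not used. The RNA-seq density of *Fosl1* was 8.49 and 13.3 counts per 100 nt of CDS, and with RNA-seq counted over the CDS its translational efficiency was 3.95. *Fosl2* is at chr5:32135801-32157842 and *Fos* at chr12:85473890-85477273, both on the plus strand.

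Sequence around the start codon is shown for the Fos genes because their translational efficiencies differ so much. Each window has the start codon in capitals, and the windows are chr19:5447939-5447968, chr5:32136692-32136721 and chr12:85474028-85474057.
Fosl1 annotated start: ccagcccagggcATGtaccgagactacggg
Fosl2 annotated start: ccaccgcggatcATGtaccaggattatccc
Fos annotated start: caaacttcgaccATGatgttctcgggtttc
In these 3 genes a purine stands 3 bases before the ATG and no G directly after it. The annotated 5′UTR of *Fosl1* holds 3 upstream ATG codons with reading frames of 26, 14 and 12 codons that end before the CDS. That of *Fosl2* holds 1, with a frame of 112 codons, and that of *Fos* none. The *Fosl1* codons lie 325, 321 and 283 nt before the start codon, and the counted 5′UTR has 253 nt. In *Fosl2* the upstream ATG is the first codon of the annotated transcript, 903 nt before the start, and the counted 5′UTR has 232 nt. The counts on the 5′UTR may therefore not cover these codons, and their part in translational efficiency was not tested.

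The 3′UTRs of *Fos* and *Fosl2* were the only ones among the 10 genes with the 9-base AU-rich element TTATTTATT, which occurs in mRNAs of rapid turnover. It was found in 7.27% of all genes passing the filters that have an annotated transcript, and in 8.49% of those with a 3′UTR as long as those of the 10 genes. The pentamer ATTTA was counted 4 times in the 3′UTR of *Fos*, 8 times in that of *Fosl2* and 1 time in that of *Fosl1*. Windows of 30 bases with ATTTA in capitals are shown for *Fos* at chr12:85477099-85477128 and for *Fosl1* at chr19:5455867-5455896, as a gene with and a gene without the 9-base element.
Fos 3′UTR: attgtgttttcaATTTATTTAttaagatgg
Fosl1 3′UTR: agggcagctgctATTTAttttcctaaagag
These letters are a description of the annotation, and nothing in these libraries measured mRNA decay.

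*Atf3*, a stress-induced bZIP factor that pairs with Jun proteins, had the least RNA and the second highest translational efficiency of the 10 genes. It is at chr1:191170296-191218039 on the minus strand. RNA-seq gave 1.94 and 3.25 RPKM from 41 and 90 counts, which is percentile 5.66 of all genes. The 30.8 footprints on the CDS (20.9 to 43.7) gave 16.0 RPKM, percentile 45.5. Translational efficiency was 2.28 ± 0.54, with a counting range of 1.72 to 2.79 from the footprints alone. It stayed above 1 against either replicate, at 2.71 and 1.94, and its level was below the filter when the deposited RPKM was used.

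*Myc* was the most abundant RNA of the 10 genes and differed least between the replicates. It was at 69.7 and 69.9 RPKM (1790 and 2347 counts), percentile 89.1 of all genes, and had 453 footprints on the CDS (412 to 497), or 96.9 RPKM. Its translational efficiency of 0.13 ± 0.01 put it next to the median gene. With RNA-seq counted over the CDS the value was -0.01, so its side of 0 was not determined.

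*Myc* is at chr15:61985391-61990374 on the plus strand. Its annotated CDS starts at a CTG codon, and the counted CDS starts 45 nt later at the ATG of codon 16 and covers 96.7% of the annotated one. The CTG start of the longer Myc protein and the ATG start are long known, and both are shown because the counted regions split between them. The start codon is in capitals and the windows are chr15:61985910-61985939 and chr15:61987510-61987539.
Myc annotated start: gctgtttgaaggCTGgatttcctttgggcg
Myc start of the counted CDS: acagccacgacgATGcccctcaacgtgaac
A purine stands 3 bases before each start codon. The 45 nt between them were counted as exon and as neither CDS nor UTR.

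*Ier2*, a small nuclear protein gene with 1 exon at chr8:84661331-84662852 on the minus strand, combined high RNA with many footprints. It was at 31.5 and 35.6 RPKM (514 and 759 counts) and had 216 footprints (189 to 247), or 92.0 RPKM. Translational efficiency was 1.11 ± 0.14, and the counting range of 0.91 to 1.30 includes 1. It was below 1, at 0.72, with at least 100 counts in every library, and at 0.93 when counts were not divided by length.

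*Egr1*, a zinc finger factor induced through serum response elements, was the lowest of the 10 genes in footprints. It was at 4.32 and 5.0 RPKM (142 and 215 counts) and had 24.1 footprints (15.4 to 35.8), or 4.24 RPKM, at percentiles 15.1 and 15.3 of all genes. The translational efficiency of -0.48 ± 0.16 had a counting range of -1.12 to 0.10, so a difference from the median gene was not detectable at this depth. Like *Atf3*, it was below the filter when the deposited RPKM was used.

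On the 5′UTR, footprints were found in each of the 10 genes, at a lower density than on the CDS. In *Fos*, *Egr1* and *Ier2* the counting interval of the 5′UTR footprints included the density of the CDS, so the lower density was not resolved there. Density is the count per counted nt, and genes were examined when they passed the filters, had at least 60 counted nt of 5′UTR and at least 10 footprints on the CDS. The 5′UTR was denser than the CDS in 0 of the 10 genes, against 17.4% of the 7445 genes examined. The median log2 ratio of the 10 genes was -0.97, against -1.38 for all genes examined, and 7 of the 10 were above the latter. Together the 10 genes had 355 of 2443 exon footprints on the 5′UTR, or 14.5%, against 4.50% in the whole library. On 3′UTRs the shares were 2.17% and 1.84%. These shares are adjusted neither for region length nor for RNA-seq counts on the region. The annotated 5′UTR had a median of 346.5 nt in the 10 genes against 169 nt in all annotated genes that passed the filters. After division by RNA-seq density, the median log2 ratio of the 10 genes was 0.15, below the 0.40 of all genes examined.

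*Jun* and *Myc* held most of those 5′UTR footprints. *Jun* had 87.2 footprints on a 5′UTR of 951 nt (69.8 to 107) beside 148 on 1002 nt of CDS, so that 37.1% of its 5′UTR and CDS footprints were on the 5′UTR (exact Clopper-Pearson 95% interval 30.9% to 43.6%). Per 100 nt this is 9.17 on the 5′UTR and 14.8 on the CDS, a log2 ratio of -0.69. *Myc* had 101 footprints on 581 nt of 5′UTR (82.6 to 123), a share of 18.3% (15.2% to 21.8%) and a log2 ratio of -0.98. *Junb* had 64.4 footprints on 319 nt, a share of 12.7% (9.91% to 15.9%) and a log2 ratio of -1.09. In *Fosl1* the 36.1 footprints on 253 nt were a share of 8.19% (5.80% to 11.1%), with a log2 ratio of -1.79, below the median of all genes.

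The highest ratios belonged to genes with short 5′UTRs or few footprints. *Fos* was at -0.34 with 5.55 footprints on 139 nt, *Ier2* at -0.35 with 25.8 footprints on 101 nt, and *Egr1* at -0.50 with 3 footprints on 282 nt. The counting intervals of *Fos* (1.93 to 12.4 footprints) and *Egr1* (0.619 to 8.77 footprints) are too wide to order them. *Fosl2* was at -0.95 with 18.5 footprints. The lowest ratios were those of *Jund*, -3.30 with 11.5 footprints on 1319 nt, and of *Atf3*, -3.51 with 1.22 footprints on 245 nt. The counting interval of *Atf3* (0.0542 to 5.95 footprints) is too wide to fix its place in the order. On the 3′UTR *Fos* had 0 footprints on 805 nt, and a count of 0 has a one-sided 95% upper limit of 3 counts.

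The RNA-seq density of the same regions also differed between genes. The log2 ratio of 5′UTR over CDS in RNA-seq, with both replicates summed, was 0.34 in *Ier2*, 0.19 in *Fos* and 0.18 in *Jun*, near -1.1 in *Junb* (-1.05) and *Myc* (-1.11), and -6.02 in *Jund*. After division by this RNA-seq ratio, 6 of the 10 genes had a log2 ratio above 0, against 57.0% of the genes examined, and the median moved from -0.97 to 0.15, below the 0.40 of all genes examined, whereas it was above theirs without the division. In the 4 genes whose 5′UTR had at least 30 footprints and at least 10 counts in RNA-seq, the undivided median was -1.03, against -0.99 in 1045 genes. The 6 genes were *Jund*, *Fosl1*, *Fosl2*, *Atf3*, *Myc* and *Egr1*. The value of 2.72 in *Jund* rests on the few 5′UTR counts given above, and that of 0.19 in *Atf3* on 0.0396 and 1.28 counts. *Fosl2* was at 1.60 and *Egr1* at 1.15, while *Jun* was lowest at -0.87. The counted 5′UTR had the length of the annotated one only in *Jun* and *Ier2*. It differed most in *Jund* (1319 nt against 109 nt), *Fosl2* (232 against 903), *Egr1* (282 against 1666) and *Fosl1* (253 against 404), and less in *Myc* (581 against 531), *Junb* (319 against 289), *Fos* (139 against 150) and *Atf3* (245 against 252).

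**Figure D3:**
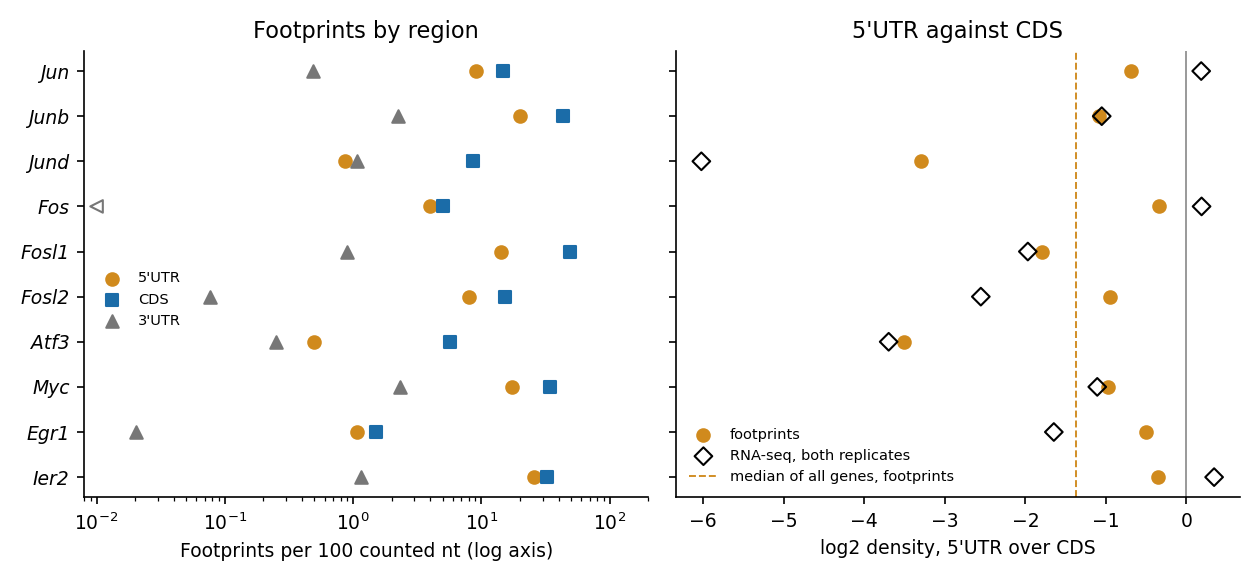
Footprints per 100 counted nt of 5′UTR, CDS and 3′UTR on a log axis (left, with an open arrow at the axis limit for the 0 footprints on the *Fos* 3′UTR) and log2 density of the 5′UTR over the CDS in footprints and RNA-seq (right). All 10 footprint ratios are below 0, and the RNA-seq ratio reaches -6.02 in *Jund*.

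Among the 10 genes, the Jun genes and *Atf3* differed most between the RNA-seq replicates. The log2 ratio of replicate 2 over replicate 1 was above 0.5 in 4 of the 10 genes, against 1.06% of all genes, and above 0 in 10 of 10, against 47.3%. It was 0.75 in *Atf3* (exact binomial interval 0.20 to 1.32), 0.71 in *Jund* (0.52 to 0.91), 0.60 in *Junb* (0.48 to 0.72) and 0.52 in *Jun* (0.37 to 0.67). These are percentiles 99.8, 99.8, 99.6 and 99.1 of all genes, whose ratios had a median of -0.01 and an SD of 0.20. *Fosl1* was at 0.39 (0.04 to 0.74), *Fos* at 0.27, *Egr1* at 0.21, *Ier2* at 0.18, *Fosl2* at 0.11 and *Myc* at 0.00 (-0.09 to 0.09). Counted over the CDS, *Fosl2* was at 0.44, and the same 4 genes were above 0.5. Most exon counts of *Fosl2* lay on its 3′UTR, 1866 of 2224 in replicate 1 and 2494 of 3145 in replicate 2. The ratio compares 2 libraries of the same cells and not conditions. The binomial intervals cover counting error only, and the replicates differed by more than that over all genes (chi-square of 7.52 for each degree of freedom).

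GC content moved with the ratio across all genes. With genes in 10 groups of equal size by the GC content of the CDS, its median went from -0.23 in the lowest group to 0.17 in the highest, where 6 of the 10 genes are found and where 5.54% of genes exceeded 0.5. Relative to the median of genes in the same group, an alternative chosen after seeing the data, 2 of the 10 genes were above 0.5, *Atf3* (0.81) and *Jund* (0.55), against 0.522% of 9389 genes. *Junb* was then at 0.44 and *Jun* at 0.35, and 8 of 10 were above 0, against 50.0%. The immune markers were 3.11 times and the fibroblast markers 1.60 times as high in replicate 2, as given above, and their part in the result was not tested. Among 28 other immediate early genes that passed the filters, 1 (*Id1*, 0.52) was above 0.5 and 20 were above 0, with a median of 0.14 against 0.33 in the 10 genes.

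**Figure D4:**
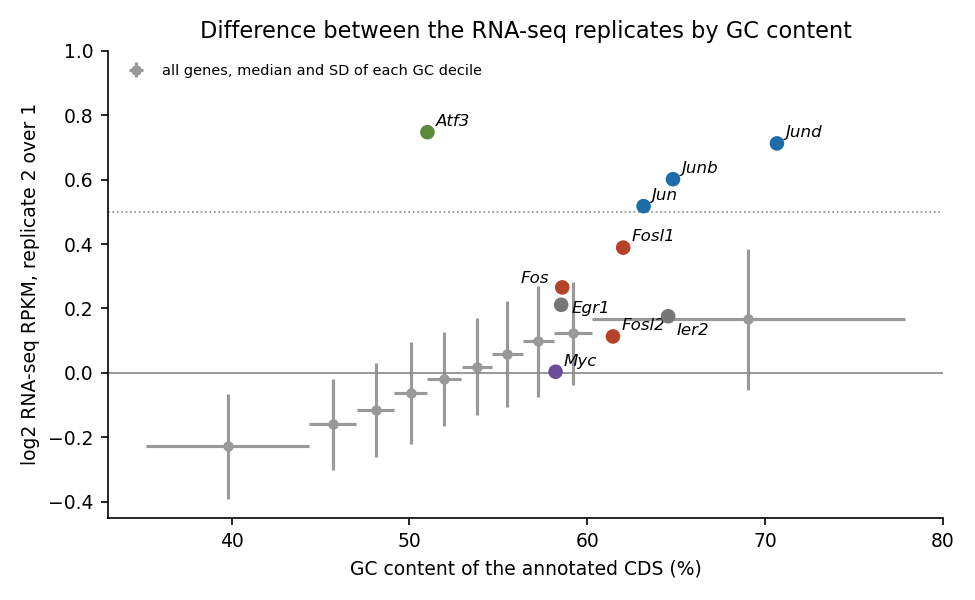
Log2 ratio of RNA-seq RPKM in replicate 2 over replicate 1 against the GC content of the annotated CDS for the 10 genes, with the median and SD of all genes passing the filters in 10 groups of equal size (grey, horizontal bars for the GC range of a group). The dotted line is at 0.5, and *Atf3*, *Jund*, *Junb* and *Jun* lie above it.

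By annotation the 10 genes had, in the median, a shorter and more GC-rich CDS and a longer 5′UTR than the median gene. Exceptions were *Egr1* with a longer CDS (1599 nt) and *Atf3* with a less GC-rich one. The 5′UTRs of *Jund* (109 nt), *Fos* (150 nt) and *Ier2* (101 nt) were shorter. The GC content of the CDS had a median of 61.7% and a range of 51.0% in *Atf3* to 70.7% in *Jund*, against a median of 52.9% in 9389 annotated genes that passed the filters. GC content of the 5′UTR, with a median of 64.6%, was close to the 65.3% of all genes. The CDS had a median length of 1012 nt against 1401 nt, and the 5′UTR one of 346.5 nt against 169 nt. The transcript used had 1 exon in 4 of the 10 genes, *Jun*, *Junb*, *Jund* and *Ier2*, against 1.73% of all genes. ATTTA was found in the 3′UTR of 9 of 10 genes, with none in *Ier2*, against 66.4% of all genes and 80.1% of genes with a 3′UTR length in the same range. An upstream ATG was found in the annotated 5′UTR of 4 of 10 genes, against 48.9%. Of the 9 genes with an ATG start, 7 had a purine 3 bases before it, against 86.6% of all genes, and the exceptions were *Jun* and *Junb*.

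The partners, regulators and targets of these factors were taken from fixed lists, and the share of genes above 1 in translational efficiency is set against the 20.7% of all genes and the share below -1 against 21.1%. Of 15 other AP-1 and bZIP partners, 10 passed the filters, with 2 above 1 and 2 below -1 and a median of -0.21. *Nfe2l2*, the oxidative stress factor Nrf2, was the most abundant at 191 and 165 RPKM (translational efficiency -0.70), followed by *Jdp2* (24.9 and 25.8 RPKM, -0.46) and *Maf* (25.4 and 21.6 RPKM, -1.57). *Maff* was highest at 1.77 and *Atf7* next at 1.09. The genes below the filters, named after their values were seen, were *Fosb* (17.8 and 31 RNA-seq counts), *Batf*, *Batf2*, *Batf3* and *Bach2*, the latter 4 with at most 2 counts in a library.

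In the Myc network 13 of 14 genes passed, with 3 above 1 and 5 below -1 and a median of -0.83. *Max*, the partner of Myc, was the most abundant at 35.7 and 37.5 RPKM and had a translational efficiency of 0.35. Its footprint level was 59.1 RPKM, below the 96.9 RPKM of *Myc*. *Mxd4* and *Mxd3*, which encode Max partners that oppose Myc, were lowest at -2.60 and -2.57, and the related *Mxd1* was highest at 2.32. The values of *Mxd4* and *Mxd3* rest on only 14.7 and 4.37 footprints on the CDS, against 95.9 for *Mxd1*, and no counting range is given for them. *Aurka*, a mitotic kinase known to stabilise N-Myc, was at 30.6 and 25.6 RPKM and 1.90. *Mycn*, named after its values were seen, had 2 and 0 RNA-seq counts.

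Among 32 other immediate early genes, 28 passed the filters, with 12 above 1 and 3 below -1 and a median of 0.21. *Plk2* (97.1 and 97.3 RPKM), *Mcl1* (79.9 and 73.1 RPKM) and *Ier3* (70.3 and 74.1 RPKM) had the most RNA, and their translational efficiencies were 0.10, 0.18 and 0.87. *Id1* was highest at 3.56, with 25.9 and 48.7 RNA-seq counts, and *Hbegf*, a ligand of the EGF receptor, was at 2.74. The lowest were the keratinocyte factor *Klf4* at -1.31 and the antiproliferative gene *Btg2* at -1.29. *Egr2*, *Egr3*, *Klf2* and *Arc* were below the filters and were named after their values were seen.

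Of 12 upstream factors, 12 passed, with 3 above 1 and 3 below -1 and a median of -0.03. *Mapk3*, a kinase that acts downstream of Ras, was at 54.2 and 63.2 RPKM with a translational efficiency of -0.98. *Elk1* and *Elk4*, ETS factors that bind with serum response factor, were lowest at -2.20 and -1.26, *Elk3* had more RNA (33.7 and 31.2 RPKM, -0.13), and *Creb1* was at 1.59. The values of *Elk1* and *Elk4* rest on only 6.43 and 15.6 footprints on the CDS. Of 8 genes that act on AU-rich mRNAs, 8 passed, with 2 above 1, 0 below -1 and a median of -0.07. The 2 genes were the AU-binding proteins *Hnrnpd* at 3.83 and *Elavl1* at 3.53. The decay factors *Zfp36l2* (143 and 128 RPKM), *Zfp36* (34.7 and 43.3 RPKM) and *Zfp36l1* (38.4 and 34.8 RPKM) were at -0.22, -0.35 and -0.31, and the deadenylase *Cnot7* was lowest at -0.87.

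The last lists hold known target genes of AP-1 and Myc. Of 15 AP-1 target genes, 11 passed, with 9 above 1, 0 below -1 and a median of 1.68. *Ccnd1* (187 and 177 RPKM, 1.65), *Cd44* (108 and 101 RPKM, 1.51) and *Mmp14* (46.1 and 47.6 RPKM, -0.12) had the most RNA. The growth factor genes *Ereg* and *Hbegf* were highest at 3.13 and 2.74, and *Vegfa* was at 0.27 with 61.5% of its annotated CDS counted. *Mmp3*, *Mmp9*, *Mmp10* and *Mmp13*, the matrix metalloproteinase genes often used as AP-1 readouts, were below the filters and were named after their values were seen. Of 12 Myc target genes, 12 passed, with 10 above 1, 1 below -1 and a median of 1.79. *Npm1* (702 and 636 RPKM, 2.05), *Ldha* (459 and 510 RPKM, 1.22) and *Cdk4* (205 and 227 RPKM, -0.39) had the most RNA, *Eif4e* and *Odc1* were highest at 4.0 and 2.87, and *Tert* was lowest at -1.05. The *Tert* value rests on only 12 footprints on the CDS. Only 30.6% of the annotated CDS of *Eif4e*, 28.2% of that of *Odc1* and 48.4% of that of *Ldha* was counted. The counted part was also short in *Fbl* (26.5%, translational efficiency 2.21), *Nop56* (63.1%, 1.26) and *Srm* (84.8%, 1.53), which were named after their values were seen. *Hbegf*, *Srf*, *Zfp36* and *Zfp36l1* are each in 2 of these lists. These levels say nothing on whether a target gene responded to its factor.

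**Figure D5:**
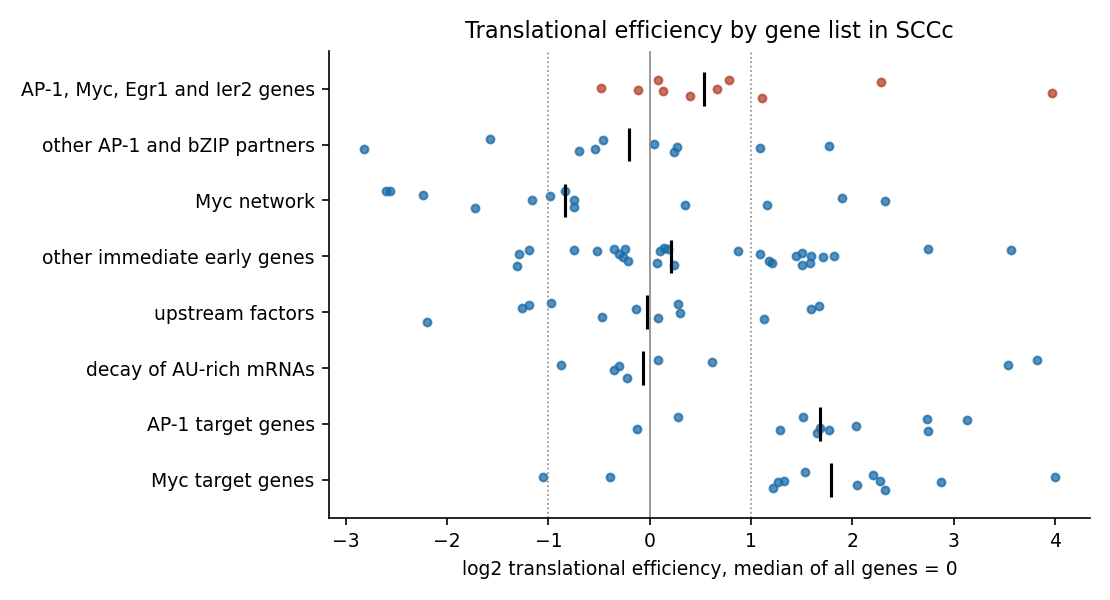
Log2 translational efficiency of the genes that passed the filters in each list, 1 point per gene, with the median as a black bar, 0 at the median of all genes and dotted lines at -1 and 1. The medians run from -0.83 in the Myc network to 1.79 in the Myc target genes, and the 10 genes (red) have a median of 0.53.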

How the data were processed

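The libraries were 1 ribosome profiling and 2 RNA-seq libraries of SCCc. The authors trimmed reads with Trim Galore, aligned them to GRCm38 with STAR 2.6.1, removed ribosomal, mitochondrial and tRNA reads from ribosome profiling with Bowtie2 2.4.1, and counted genes over exons, CDS and UTRs with Plastid. The deposited values are estimated counts that need not be whole numbers. The RPKM deposited by the authors uses larger library totals than the exon counts. RPKM was therefore computed again from the exon counts. Genes were kept with footprints on the CDS, a base mean above 25 and, in each RNA-seq library, an RPKM above 1. The genes and lists were chosen with earlier results of these data known. From each list the 3 genes with the most RNA, and the 2 highest and 2 lowest in translational efficiency, are named, except for items that are not reported here. Sequences and structures came from GENCODE M21 (GRCm38), which matched 9389 of 9862 passing genes. No test between conditions was possible. Size factors for alternatives came from edgeR 4.0.16 and DESeq2 1.42.0 after rounding the counts. The calculation was tested on simulated data. Python 3.11.15, numpy 2.4.6, pandas 2.3.3 and scipy 1.17.1 were used.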

Additional observations from a re-analysis of the deposited data

Results flagged for a closer look

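Of the 10 genes, *Myc* and *Jund* have exon positions counted neither as CDS nor as UTR, which the regions described above leave out, and footprints lay there in both. On the 45 nt between the CTG and ATG starts *Myc* had 22.1 footprints (exact Poisson 95% interval 13.9 to 33.4). Per 100 nt this is 49.1 footprints (30.8 to 74.3), against 34.4 on the CDS and 17.4 on the 5′UTR. RNA-seq gave 79.1 and 99.7 counts per 100 nt there, against 101 and 132 on the CDS. On the 144 nt between the starts of *Jund* there were 9.13 footprints (4.2 to 17.3), or 6.34 per 100 nt, against 8.56 on the CDS and 0.87 on the 5′UTR. RNA-seq gave 1.05 and 3.01 counts per 100 nt there, against 25.5 and 51.9 on the CDS. The part of footprints on the neighbouring ATG in these values was not tested.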

How the results depend on the processing

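No paired analysis was possible because only 1 condition is at hand and no result comes from a test between groups. The median translational efficiency of the genes that passed stayed above 0 in 10 of 10 alternatives, which held 10 genes except for 8 with the deposited RPKM, without *Atf3* and *Egr1*, and 6 with a minimum of 100 counts. It was 0.27 and 0.88 when RNA-seq replicate 1 or 2 was left out. The number above 1 was 3 or 4 without either replicate and 1 with at least 100 counts in every library, where *Jund*, *Fos*, *Atf3* and *Egr1* no longer passed and *Ier2* was at 0.72. Without division by length 2 genes were above 1, with *Ier2* at 0.93, *Jund* was at -0.22, and 1 gene was below -1, *Fosl2* at -1.68. *Jund*, *Fos*, *Fosl2* and *Myc* each changed sides of 0 under at least 1 alternative. The median RNA level of 17.5 RPKM was 13.95 to 21.1 RPKM in the separate replicates, 3.73 with the deposited RPKM, which uses larger library totals, and 27.7 with RNA-seq counted over the CDS, where *Jund* and *Jun* changed places. After division by RNA-seq density, the 5′UTR ratio had a median of 0.15 with 6 genes above 0, and the cause was not tested. Relative to genes of like GC content, the replicate ratio had a median of 0.18 with 2 genes above 0.5, against 0.522% of all genes with a GC value. With 1 ribosome profiling library, intervals cover counting error only, and *Egr1*, *Atf3* and *Fos* are limited by their 24.1, 30.8 and 57.5 footprints.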
